A study of Mus musculus with 6 samples.

Results

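Glycogen synthesis and breakdown in inguinal white adipose tissue (iWAT) was examined through 9 genes, chosen by name from the deposited gene table. They were *Gys1*, *Gys2*, *Gyg*, *Gbe1*, *Ugp2*, *Ppp1r3b*, *Ppp1r3c*, *Pygl* and *Pygb*. Each of the 9 had a single row among the 19445 gene loci of the table, and each passed the filter for expressed genes (mean FPKM above 1 in TG or in WT). The samples were RNA-Seq libraries of subcutaneous inguinal fat from 3 *Hlx* transgenic mice (TG) and 3 wild-type littermates (WT), 1 library per mouse. All mice were labelled male and 12 weeks old, and the labels name no treatment in either group. The transgene placed the *Hlx* cDNA, which encodes a homeobox transcription factor, behind the *aP2* (*Fabp4*) promoter, which is most active in fat cells, as a germ-line transgene. The control mice carried no transgene, and both genotypes came from a C57BL/6 and SJL hybrid founder stock backcrossed to C57BL/6.

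Glycogen is the branched glucose polymer that cells keep as a quick store of sugar. It is built from UDP-glucose, primed by glycogenin, lengthened by glycogen synthase, branched by the branching enzyme, and broken down by glycogen phosphorylase. Protein phosphatase 1, brought to the particle by glycogen-targeting subunits, switches the synthase on and phosphorylase off, while phosphorylase kinase does the reverse under adrenergic signaling. Brown and beige fat cells hold glycogen, and the brown-like remodeling of iWAT was the setting of the study.

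The start regions of 4 of the genes are printed, those of the phosphorylase that rose (*Pygl*) and the one that was not called (*Pygb*), of the UDP-glucose enzyme *Ugp2*, and of the phosphatase-targeting gene *Ppp1r3c*. They run from 250 bases before to 50 bases after the annotated start in RefSeq, build GRCm38.p6, which is mm10, and they read 5′ to 3′ on the strand of the gene. *Pygl* is at chr12:70227634-70227933 on the minus strand, *Pygb* at chr2:150786546-150786845 on the plus strand, *Ugp2* at chr11:21371218-21371517 on the minus strand, and *Ppp1r3c* at chr19:36736555-36736854 on the minus strand. Capitals mark matches, on either strand, to TGACG (the short form of the cyclic AMP response element), ACGTG (the core of the hypoxia response element), CACGTG (the E-box, which contains ACGTG on both strands), AGGTCA (a nuclear receptor half-site) and TAATTA (a homeobox core).
Pygl: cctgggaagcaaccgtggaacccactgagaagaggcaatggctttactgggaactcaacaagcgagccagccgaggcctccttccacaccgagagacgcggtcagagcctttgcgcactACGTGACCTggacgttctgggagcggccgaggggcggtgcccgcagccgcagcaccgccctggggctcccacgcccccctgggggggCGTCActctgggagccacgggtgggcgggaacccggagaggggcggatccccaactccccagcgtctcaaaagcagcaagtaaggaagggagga
Pygb: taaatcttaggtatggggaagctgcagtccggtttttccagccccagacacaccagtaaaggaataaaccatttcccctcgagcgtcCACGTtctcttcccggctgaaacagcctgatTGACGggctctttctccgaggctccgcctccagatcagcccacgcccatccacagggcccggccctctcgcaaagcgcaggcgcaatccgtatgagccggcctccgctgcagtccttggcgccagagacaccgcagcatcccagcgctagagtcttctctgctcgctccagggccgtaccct
Ugp2: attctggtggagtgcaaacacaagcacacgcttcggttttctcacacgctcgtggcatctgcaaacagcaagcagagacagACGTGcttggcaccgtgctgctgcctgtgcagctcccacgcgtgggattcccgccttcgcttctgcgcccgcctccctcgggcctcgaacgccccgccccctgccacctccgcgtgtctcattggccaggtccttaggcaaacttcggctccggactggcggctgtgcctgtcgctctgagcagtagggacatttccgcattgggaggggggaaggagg
Ppp1r3c: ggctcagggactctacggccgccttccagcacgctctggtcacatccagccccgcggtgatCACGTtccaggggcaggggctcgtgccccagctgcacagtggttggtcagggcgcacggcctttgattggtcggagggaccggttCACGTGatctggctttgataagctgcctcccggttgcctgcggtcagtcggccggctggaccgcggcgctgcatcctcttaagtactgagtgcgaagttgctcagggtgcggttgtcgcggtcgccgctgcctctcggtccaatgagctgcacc
The 7 of 9 genes with a RefSeq entry, all but *Gys2* and *Ppp1r3b*, were searched, using the first listed start of *Ugp2*. TGACG was present at *Pygl*, *Pygb* and *Gyg*, and in 20.8% of all 32851 promoter windows. ACGTG was present at *Pygl*, *Pygb*, *Ugp2*, *Gyg* and *Ppp1r3c*, and in 19.6% of all windows. Of the 3 matches at *Ppp1r3c*, those at positions 147 and 148 are the same CACGTG read on either strand. CACGTG was present at *Gyg* and *Ppp1r3c* and in 7.15% of windows. AGGTCA was present at *Pygl* alone among the 7, overlapping the ACGTG match there, and in 16.3% of windows. TAATTA was present at none of the 7 and in 5.29% of windows. The windows of *Gys1* and *Gbe1* held none of these letters.

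The values are FPKM, a read density scaled for transcript length and for the reads of the library, so levels can be compared between genes as well as between mice. *Hlx* itself was measured at 110, 79.6 and 99.5 FPKM in the TG mice and at 6.88, 7.35 and 8.14 FPKM in the WT mice, so every library carried the *Hlx* level of its label. *Xist*, the RNA of the inactive X chromosome of females, was between 20.2 and 33.6 FPKM in all 6 samples, and each of 28 Y-linked loci had a value of 0 in every mouse, which goes against the male label of both genotypes alike. Adipocyte markers were abundant, with summed levels between 29964 and 35351 FPKM in TG and between 27823 and 34921 FPKM in WT, most of it *Fabp4* (19297 to 29363 FPKM). Of the 9 adipocyte markers with a row, 3 were called lower in TG and 0 higher (limma), *Adipoq*, *Lpl* and *Retn*, with log2 fold changes of -0.85, -0.67 and -2.02. Of 8 brown and beige fat markers, 7 were called higher in TG. Across all tested loci 11.6% were called higher and 7.03% lower. The 13 skeletal muscle markers with a row summed to 104, 782 and 152 FPKM in TG replicates 1, 2 and 3 and to 9.38, 160 and 45.9 FPKM in the WT replicates, so TG replicate 2 held the most muscle RNA. The absolute depth is unknown. Steps between low values placed the depth of the samples between 0.692 and 1.41 times that of WT replicate 3, lowest in TG replicates 3 and 1. Genes were compared with limma on log2(FPKM + 1) across the 11692 loci past the filter, with Benjamini-Hochberg adjustment, and "called" means an adjusted p under 0.05. Nothing beyond the labels says how the mice within a genotype were related, and for a single value the exact permutation test of 3 against 3 has a lower limit of p = 0.1 (two-sided).

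Of the 9 glycogen genes, 5 were called higher in TG iWAT and 0 were called lower (limma, Benjamini-Hochberg adjustment). The 5 were *Pygl*, *Ugp2*, *Gyg*, *Gys1* and *Gbe1*, with ratios of mean FPKM from 1.44 to 1.97. Across all tested loci 11.6% were called higher and 7.03% lower, and at an unadjusted p under 0.05 the number of glycogen genes that were lower was also 0. The TG and WT values did not overlap at 7 of the 9, all higher in TG, where 22.8% of all tested loci were higher without overlap and 42.9% did not overlap in either direction. The log2 fold change was above 0 at 8 of the 9, and at 48.4% of all tested loci. Summed over the 9 genes, the level was 1440, 1066 and 1100 FPKM in the TG mice and 720, 726 and 630 FPKM in the WT mice. The median log2 fold change of the 9 was 0.63, against -0.01 over all tested loci. The largest fold changes belonged to the phosphatase-targeting genes *Ppp1r3b* and *Ppp1r3c*, neither of which was called. The mice within a genotype differed widely at *Ppp1r3b* in both genotypes and at *Ppp1r3c* in TG. *Gys2* and *Pygb*, the liver-type synthase and the brain-type phosphorylase, overlapped between genotypes. In bulk tissue, more cells of a type and more RNA per cell cannot be told apart.

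**Figure D1:**
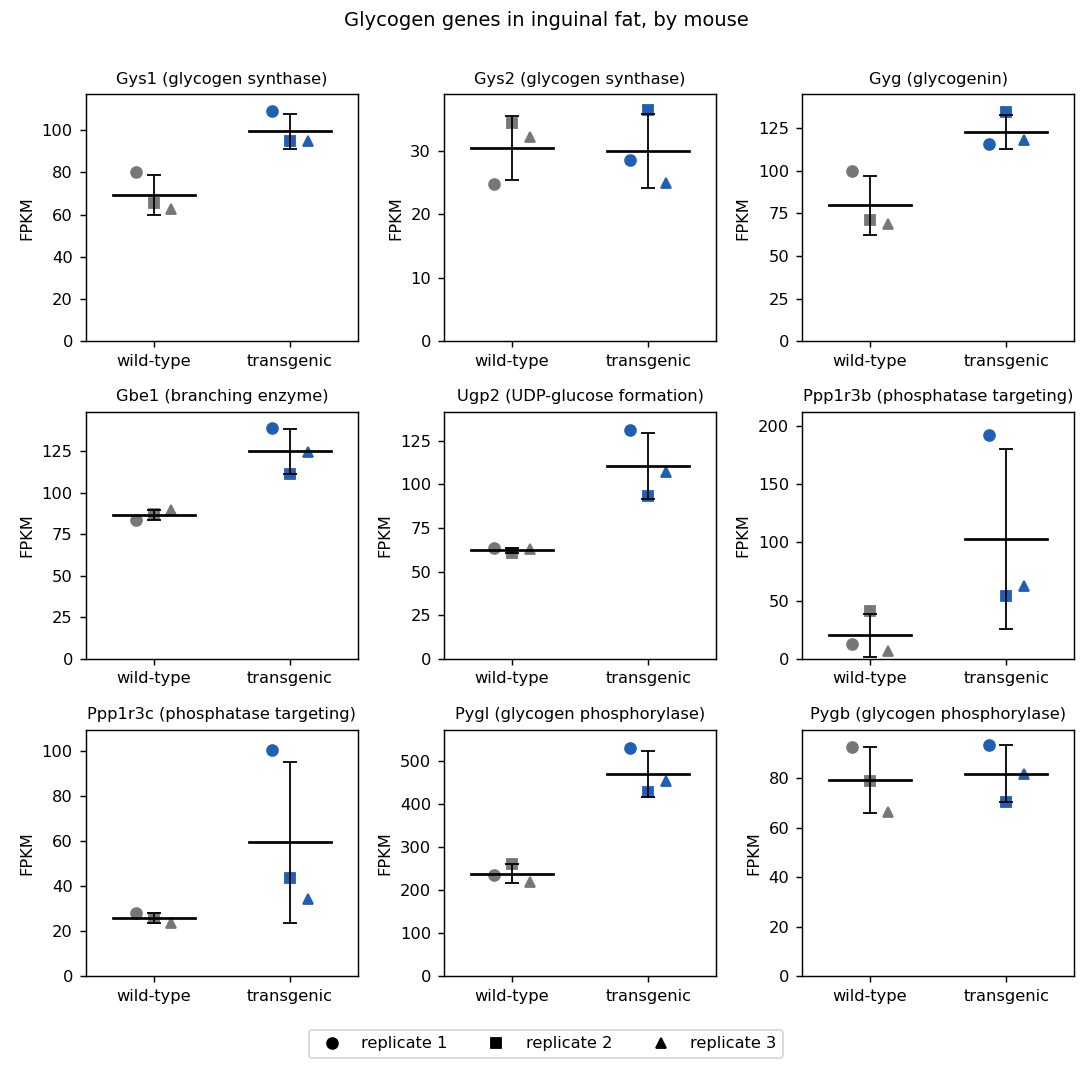
FPKM (y axis, linear from 0) of the 9 glycogen genes in each WT mouse (gray) and TG mouse (blue), with marker shape for the replicate number, a horizontal line at the mean and bars of 1 SD (n = 3 mice). The genotypes separate at 7 genes and overlap at *Gys2* and *Pygb*, and TG replicate 1 stands far above the other TG mice at *Ppp1r3b* (193 FPKM) and *Ppp1r3c* (100.5 FPKM).

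The precursor step is shown by *Ugp2*, which encodes UDP-glucose pyrophosphorylase, the enzyme that makes the glucose donor of glycogen synthase. Its locus in the table, on chromosome 11 of mm10 from 21238888 to 21371201, is shared with the neighboring gene *Vps54*, which is listed separately. The noncoding gene *Gm12043* on the other strand overlaps *Ugp2* by 802 bases in the annotation, and what its reads add was not tested. *Ugp2* was at 131, 93.5 and 107 FPKM in TG replicates 1, 2 and 3 and at 63.4, 60.6 and 62.7 FPKM in the WT replicates. The lowest TG mouse was well above the highest WT mouse, and the WT mice were nearly identical. TG exceeded WT by 0.80 on the log2 scale (SE 0.13; adjusted p = 0.0075, limma), and the call held in all 15 other settings tried. For *Vps54* the log2 fold change was 0.20, with an adjusted p of 0.152 (limma).

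Glycogenin and the 2 synthase genes cover the priming and lengthening of the chain. *Gyg*, the glycogenin gene, which attaches the first glucose units to itself, lies on chromosome 3 from 20122036 to 20155096. It was at 116, 134 and 118 FPKM in the TG mice and at 99.6, 71.0 and 68.5 FPKM in the WT mice. The TG mice lay close together and above all WT mice, among which replicate 1 was the highest. The change was 0.63 in log2 units (SE 0.15, adjusted p = 0.0321, limma). This call was lost when any mouse other than WT replicate 1 was left out, with adjusted p from 0.0653 to 0.101, while the log2 fold change stayed between 0.54 and 0.80.

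*Gys1*, the glycogen synthase gene of muscle and most other tissues, lies on chromosome 7 in a table locus from 45420945 to 45456617. *Gys1* was at 109, 94.7 and 94.6 FPKM in TG and at 80.2, 65.3 and 62.4 FPKM in WT. The groups did not overlap, and replicate 1 was the highest mouse of each genotype. In log2 units the mean difference was 0.52 (SE 0.12; limma, adjusted p = 0.0265). The call was lost without TG replicate 1 (adjusted p = 0.0721), TG replicate 3 (0.0662), WT replicate 2 (0.084) or WT replicate 3 (0.0863), and the log2 fold change stayed between 0.45 and 0.63. *Ruvbl2*, which runs on the other strand and overlaps *Gys1* by 3253 bases in the annotation, was itself higher in TG (38.3 ± 1.61 against 27.0 ± 1.84 FPKM, SD, 3 mice each; limma, adjusted p = 0.00844). The library kit does not mark strand, so reads from the overlap cannot be assigned, and how much they add to *Gys1* was not tested. *Gys1* is also a muscle gene. Without TG replicate 2, the mouse with the most muscle RNA, its log2 fold change was 0.55 (limma, adjusted p = 0.0439), and without replicate 2 of both genotypes it was 0.51 (adjusted p = 0.115). The TG mice kept in that last fit still held more muscle RNA than the WT mice kept, and the part of muscle RNA in *Gys1* was not tested.

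*Gys2*, the synthase known from liver and also present in fat, lies on chromosome 6 from 142422525 to 142473120. It was at 28.6, 36.4 and 25.0 FPKM in TG and at 24.7, 34.3 and 32.2 FPKM in WT. The 2 ranges were nearly the same, and the highest and the lowest of the 6 mice were TG replicate 2 and WT replicate 1. The log2 fold change was -0.02 (95% interval from -0.43 to 0.38, limma adjusted p = 0.933), an interval that leaves room for a ratio between 0.745 and 1.30. The direction flipped without TG replicate 1, TG replicate 3, WT replicate 2 or WT replicate 3. Of the 7 hepatocyte markers with a row, *Cps1* was listed at 0 in all mice, *Ttr*, *Tat* and *Ahsg* were under 0.1 FPKM in each mouse, and *Alb*, at 5.82 to 9.52 FPKM in TG and 25.5 to 40.5 FPKM in WT, made up most of the summed hepatocyte marker level of 8.85 to 13.2 FPKM in TG and 27.5 to 42.0 FPKM in WT. *Alb* and *Apoa2* were the 2 that passed the filter, and they were called in opposite directions, *Alb* lower (log2 fold change -1.91, adjusted p = 0.00225, limma) and *Apoa2* higher, from 1.09 ± 0.106 to 2.91 ± 0.871 FPKM (SD, 3 mice each; log2 fold change 0.88, adjusted p = 0.0134, limma).

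The 2 synthase genes thus made up different shares of the summed synthase level in each mouse. *Gys2* gave 20.8%, 27.8% and 20.9% of the summed *Gys1* and *Gys2* FPKM in the TG replicates and 23.6%, 34.5% and 34.1% in the WT replicates. The mean share was 23.2% ± 4.0 in TG and 30.7% ± 6.19 in WT (SD, n = 3 mice each). The groups overlapped through TG replicate 2 and WT replicate 1 (exact permutation test, two-sided p = 0.2).

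*Gbe1*, the glycogen branching enzyme gene, lies on chromosome 16 from 70314086 to 70569716 and overlaps no other annotated gene. It was at 139, 111 and 125 FPKM in TG and at 83.5, 87.4 and 89.6 FPKM in WT. The WT mice lay within a narrow range, and the lowest TG mouse, replicate 2, was above all of them. TG exceeded WT by 0.52 on the log2 scale (SE 0.10; adjusted p = 0.0157, limma). Without TG replicate 3 the adjusted p was 0.0574 and without WT replicate 2 it was 0.0516, with log2 fold changes of 0.51 and 0.52.

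The phosphorylases release glucose 1-phosphate from the chain. *Pygl*, the liver-type phosphorylase gene, had the highest FPKM of the 9 genes in every mouse and rose the most clearly of them. It lies on chromosome 12 from 70190814 to 70227683. In the annotation, where *Pygl* ends at 70231488, the noncoding gene *F730035M05Rik* on the other strand overlaps it by 3648 bases. What reads from that overlap add to *Pygl* was not tested. *Pygl* was at 530.2, 427 and 453 FPKM in TG and at 235, 262 and 218 FPKM in WT. Each TG mouse exceeded each WT mouse by more than the spread of either group. The change was 0.97 in log2 units (SE 0.12, adjusted p = 0.00339, limma), or a ratio of means of 1.97, and the call held in all 15 other settings. The lowest log2 fold change among these settings was 0.64, with quantile normalization.

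*Pygb*, the brain-type phosphorylase gene, lies on chromosome 2 in a table locus from 150786712 to 150904731 that also holds *Abhd12*. It was at 93.4, 70.3 and 81.6 FPKM in TG and at 92.7, 78.6 and 66.3 FPKM in WT. The 2 groups covered the same range, with replicate 1 the highest of each. The log2 fold change was 0.05 (95% interval from -0.31 to 0.41, limma adjusted p = 0.841), and its sign turned with quantile normalization and when TG replicate 1 or WT replicate 3 was left out.

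The muscle-type phosphorylase gene *Pygm*, which is not one of the 9, was at 3.17, 22.1 and 4.41 FPKM in TG and at 0.93, 4.47 and 2.32 FPKM in WT. It was highest in TG replicate 2, as were the muscle markers *Acta1* (187 FPKM) and *Ckm* (119 FPKM), and in WT its highest value was in replicate 2, again as for the muscle markers. For *Pygm* the log2 fold change was 1.30 (limma, adjusted p = 0.208), and the part of muscle RNA in it was not tested. Of the summed FPKM of *Pygl*, *Pygb* and *Pygm*, *Pygl* gave 84.6%, 82.2% and 84.0% in the TG replicates and 71.5%, 75.9% and 76.1% in the WT replicates. The mean share was 83.6% ± 1.25 in TG and 74.5% ± 2.57 in WT (SD, n = 3 mice each), with no overlap (two-sided p = 0.1 by exact permutation, its lower limit here).

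**Figure D2:**
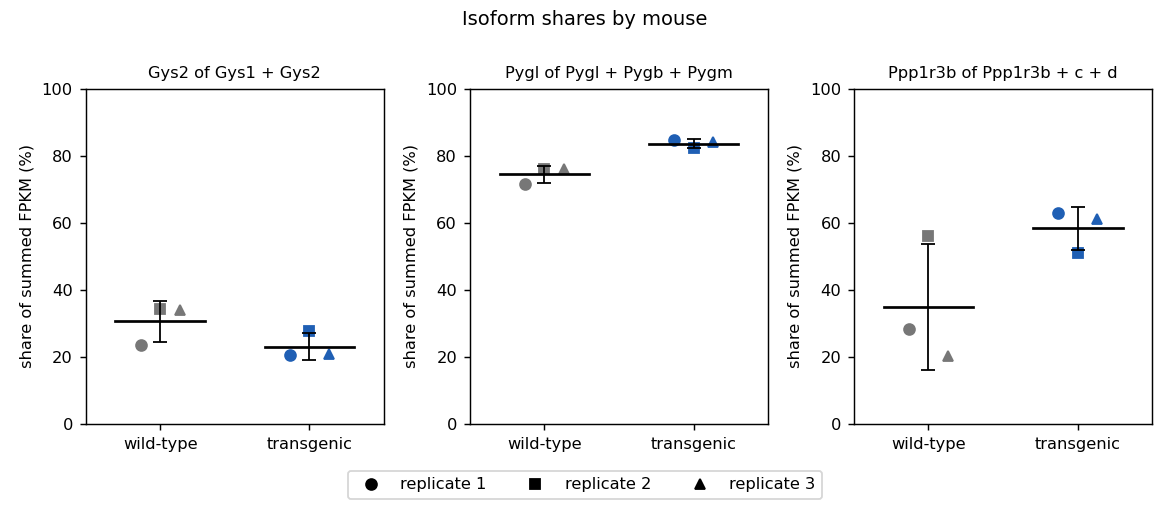
Share of the summed FPKM (y axis, percent) given by *Gys2* among 2 synthase genes, by *Pygl* among 3 phosphorylase genes and by *Ppp1r3b* among 3 phosphatase-targeting genes, for each WT (gray) and TG (blue) mouse, with the mean and 1 SD (n = 3). The *Pygl* shares do not overlap between genotypes, at 82.2% or more in TG and 76.1% or less in WT, and the other 2 shares overlap.

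The glycogen-targeting subunits of protein phosphatase 1 had the largest fold changes and the widest spread. *Ppp1r3b*, which encodes the subunit known as GL, lies on chromosome 8 from 35375571 to 35388278. The noncoding gene *Gm45469* on the other strand overlaps it by 654 bases in the annotation, and what its reads add was not tested. *Ppp1r3b* was at 193, 53.8 and 63.0 FPKM in TG replicates 1, 2 and 3 and at 12.4, 41.1 and 6.72 FPKM in the WT replicates. Each TG mouse was above each WT mouse, but the highest TG mouse was 3.58 times the lowest, and the highest WT mouse 6.11 times the lowest. TG replicate 2 and WT replicate 2 lay closest together across the genotypes. The mean was 103 ± 77.6 FPKM in TG and 20.1 ± 18.4 FPKM in WT (SD, n = 3 each). The log2 fold change of 2.43 (standard error 0.70) missed the threshold (limma adjusted p = 0.0526). Without WT replicate 2 it was 3.11 and called (adjusted p = 0.0226), and without TG replicate 1 it was 1.86 (adjusted p = 0.126).

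*Ppp1r3c*, which encodes the subunit known as PTG, lies on chromosome 19 from 36731730 to 36736604. It was at 100.5, 43.7 and 34.4 FPKM in TG and at 28.0, 25.7 and 23.6 FPKM in WT. The WT mice agreed closely, and TG replicate 1 was more than double the other TG mice, a spread of 2.92 times within the genotype. In log2 units the mean difference was 1.02 (SE 0.36; limma, adjusted p = 0.0873). Without TG replicate 1 the fold change was smaller, 0.57, but called (SE 0.13, adjusted p = 0.0405, limma).

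Another subunit gene, *Ppp1r3d*, had the same highest TG mouse, at 13.1, 7.80 and 5.56 FPKM in TG and 3.42, 6.27 and 2.66 FPKM in WT. Its groups overlapped (log2 fold change 0.93, limma adjusted p = 0.0956). *Ppp1r3b* gave 62.9%, 51.1% and 61.2% of the summed level of these 3 subunit genes in TG and 28.4%, 56.2% and 20.4% in WT. The mean share was 58.4% ± 6.37 in TG and 35.0% ± 18.8 in WT (SD, n = 3 each; exact permutation test, two-sided p = 0.2). WT replicate 2 was inside the TG range, so the groups overlapped through a single mouse. The share left out *Ppp1r3e* and *Ppp1r3f*, with log2 fold changes of -0.02 and 0.51 (limma, adjusted p of 0.945 and 0.0739). *Ppp1r3e* was at 5.05 to 6.54 FPKM in TG and at 4.61 to 6.95 FPKM in WT.

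The genes that behaved most like *Ppp1r3b* across the 6 mice were sought by the root mean square distance between log2(FPKM + 1) values centered on their own mean, a description without a test since all 6 mice share the genotype contrast. The nearest was *Grb14*, an adaptor that binds and restrains the insulin receptor, at a distance of 0.606. It was at 76.1, 39.7 and 65.6 FPKM in TG and 6.45, 19.4 and 9.10 FPKM in WT. *Itpk1*, an inositol phosphate kinase, followed at 0.701, then *Cideb*, a lipid droplet protein gene, at 0.733, and *Btf3* and *Fhl1* at 0.736 each. All 5 had, like *Ppp1r3b*, their highest TG value in replicate 1 and their highest WT value in replicate 2. Such likeness follows largely from the choice of the 5 by these same values. *Btf3* is on 2 rows at the same position, and the row that matched was near 0 in WT replicate 3.

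Levels could be ordered because FPKM is scaled by length. In WT iWAT the order of mean FPKM was *Pygl*, *Gbe1*, *Gyg*, *Pygb*, *Gys1*, *Ugp2*, *Gys2*, *Ppp1r3c* and *Ppp1r3b*. Only *Pygl* and *Gbe1* (239 and 86.8 FPKM), and *Ugp2* and *Gys2* (62.2 and 30.4 FPKM), were neighbors whose mice did not overlap. In TG iWAT *Pygl* (470.0 FPKM) again stood apart from *Gbe1* (125 FPKM), followed by *Gyg*, *Ugp2*, *Ppp1r3b*, *Gys1*, *Pygb*, *Ppp1r3c* and *Gys2*. There *Gys1* and *Pygb* (99.4 and 81.8 FPKM) were the other pair of neighbors without overlap. *Ppp1r3b* moved from the last place to the fifth, though in TG its range from 53.8 to 193 FPKM covered that of most of its neighbors. TG replicate 1 was the highest TG mouse at 7 of the 9 genes, where it was the highest at 43.2% of all tested loci, and TG replicate 2 was the highest at *Gyg* and *Gys2*.

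The rest of the pathway was taken from 4 lists holding 57 genes, of which 52 were tested, 13 were called higher and 5 lower, where 11.6% of all tested loci were called higher and 7.03% lower. The list of other glycogen genes held 24 genes, 22 of them tested. In this list 5 of the 22 were called higher and 1 lower, against those same shares of all loci, and the other 16 were not called, with a median log2 fold change of 0.24. *Ppp1cb*, a catalytic subunit of protein phosphatase 1, rose from 41.9 ± 3.29 to 91.1 ± 14.8 FPKM (SD, n = 3 each; log2 fold change 1.09, adjusted p = 0.00292, limma). The other catalytic subunit genes, *Ppp1ca* and *Ppp1cc*, had log2 fold changes of -0.27 and -0.66 and were not called (adjusted p of 0.107 and 0.26, limma). *Ppp1ca* was the more abundant, at 316 ± 16.9 FPKM in TG and 382 ± 26.9 FPKM in WT (SD, n = 3 each), without overlap. *Ppp1cb* and *Phkb* were called in all 15 other settings.

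Phosphorylase kinase, which activates phosphorylase, changed unevenly across its subunits. *Phkb*, the regulatory beta subunit, rose from 18.6 ± 0.56 to 32.5 ± 1.90 FPKM (SD, n = 3 each; log2 fold change 0.77, adjusted p = 0.00132, limma). *Phka1*, an alpha subunit best known from muscle, was at 4.37, 4.52 and 3.51 FPKM in TG and 2.77, 2.78 and 2.83 FPKM in WT (log2 fold change 0.43, adjusted p = 0.0319, limma). *Phkg1*, the muscle catalytic subunit, fell from 8.61, 5.62 and 7.03 FPKM in WT to 2.73, 5.17 and 3.38 FPKM in TG (log2 fold change -0.78, adjusted p = 0.0449, limma). *Phkg2*, the liver catalytic subunit, overlapped between genotypes (log2 fold change -0.05, adjusted p = 0.724). *Phka1* and *Phkg1* lost their calls in 8 and 7 of 15 settings, among them the removal of TG replicate 1 and of any WT mouse. *Phka1* also lost it without TG replicate 2 and *Phkg1* without TG replicate 3.

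*Stbd1*, which anchors glycogen to membranes, was at 9.64, 5.55 and 5.25 FPKM in TG and 0.98, 1.86 and 3.99 FPKM in WT. It was higher without overlap (log2 fold change 1.32, standard error 0.35, limma adjusted p = 0.0436), again with the highest value in TG replicate 1, and lost its call in 8 of 15 settings, including the removal of any TG mouse, WT replicate 1 or WT replicate 2. *Gaa*, the lysosomal glucosidase that degrades glycogen by a separate route, was at 39.4, 39.3 and 35.8 FPKM in TG and 56.0, 47.2 and 45.0 FPKM in WT. These values did not overlap, and *Gaa* narrowly missed the threshold (log2 fold change -0.36, adjusted p = 0.051, limma). The phosphoglucomutase genes *Pgm1* and *Pgm2*, which link glucose 1-phosphate to glucose 6-phosphate, had log2 fold changes of -0.01 and -0.15 (adjusted p of 0.951 and 0.469, limma), with overlap at both.

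Of the 10 genes of glucose entry and release, 8 were tested, 3 were called higher and 0 lower (limma), where 11.6% of all tested loci were called higher and 7.03% lower. The 2 lower ones at an unadjusted p under 0.05 were *Slc2a1* and *Hk3*, both without overlap. Their log2 fold changes were -0.38 and -0.52 (limma, adjusted p of 0.0564 and 0.065). Hexokinase 2, *Hk2*, was at 85.7, 52.9 and 59.3 FPKM in TG and 25.3, 37.4 and 21.8 FPKM in WT (log2 fold change 1.21, standard error 0.24, adjusted p = 0.0162, limma). *Hk2* had its highest TG value in replicate 1, as did 43.2% of all tested loci, and its highest WT value in replicate 2. Its call was lost without WT replicate 1, without WT replicate 3 and with no filter on low values. *Slc37a4*, the glucose 6-phosphate transporter of the endoplasmic reticulum, rose from 10.5 ± 2.24 to 17.4 ± 3.43 FPKM (SD, n = 3 each; log2 fold change 0.68, adjusted p = 0.0368, limma), a call lost in 7 of 15 settings, among them the removal of TG replicate 1, TG replicate 3, WT replicate 1 or WT replicate 3. *Slc2a4*, the insulin-responsive glucose transporter, did not overlap either but was not called (log2 fold change 0.55, adjusted p = 0.0736).

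**Figure D3:**
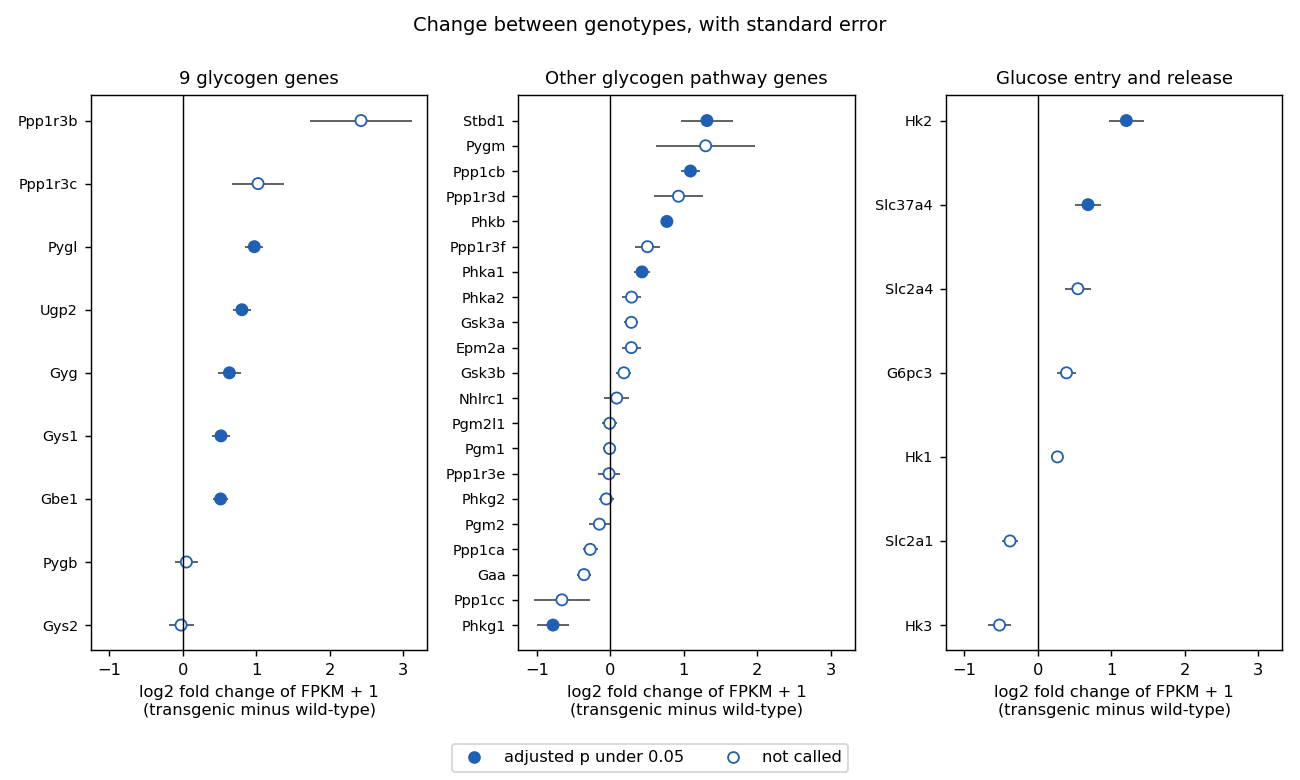
Log2 fold change of FPKM + 1 (x axis, TG minus WT) with its standard error for the 9 glycogen genes, 21 other glycogen genes and 7 genes of glucose entry and release. Filled points were called (limma, adjusted p under 0.05, 3 mice in each genotype), 5 of 9, 5 of 21 and 2 of 7. Across all tested loci 18.6% were called in either direction. *Ppp1r3b* and *Pygm* have the widest errors among the largest changes.

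The tested genes listed for UDP-glucose outside glycogen, among them the galactokinase gene *Galk1*, were not called, unlike *Ugp2*. Of the 6 listed, 5 were tested, *Galt* being listed only in a locus joined with another gene, and 0 were called in either direction, with 0 at an unadjusted p under 0.05 (limma). All 5 had log2 fold changes below 0, with a median of -0.11. *Ugcg* was lower in TG without overlap (log2 fold change -0.26, adjusted p = 0.149, limma), as were 20.1% of all tested loci. Whether the change of these 5 genes differs from that of *Ugp2* was not tested.

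Of 17 genes of insulin and adrenergic control, 5 were called higher and 4 lower, against 11.6% and 7.03% of all loci. *Prkar2b*, the regulatory subunit of protein kinase A most abundant in fat, was at 339, 278 and 331 FPKM in TG and 177, 125 and 131 FPKM in WT (log2 fold change 1.13, adjusted p = 0.00441, limma). The catalytic subunit gene *Prkaca* was higher too (log2 fold change 0.78, adjusted p = 0.0168), a call lost without WT replicate 3 and without replicate 2 of both genotypes. The adrenergic receptor genes moved in opposite directions, with *Adrb1* at 8.60, 5.62 and 3.94 FPKM in TG and 1.80, 1.81 and 1.34 FPKM in WT (log2 fold change 1.36, adjusted p = 0.00971, limma), a call lost without replicate 2 of both genotypes. *Adrb3*, the main receptor of white adipocytes, fell from 162 ± 5.43 to 101 ± 26.2 FPKM (SD, n = 3 each; log2 fold change -0.71, adjusted p = 0.0384, limma), a call lost without TG replicate 1, TG replicate 3 or any WT mouse. The insulin receptor substrate genes *Irs1* and *Irs2* fell, with log2 fold changes of -0.86 and -0.93 (adjusted p of 0.0275 and 0.0176, limma). *Irs2* lost its call without WT replicate 1 or 3, and *Irs1* without TG replicate 3 or those same WT mice. With no filter on low values *Prkaca*, *Adrb1*, *Adrb3*, *Irs1* and *Irs2* lost their calls too, and with the replicate block *Adrb3* and *Irs1* did.

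Other cell types were set beside these results. For the counts below, 11.6% of all tested loci were called higher and 7.03% lower. The macrophage markers summed to between 345 and 510 FPKM in TG and between 510 and 752 FPKM in WT, with 2 of 7 called lower. Lymphocyte markers summed to between 241 and 366 FPKM in TG and between 344 and 486 FPKM in WT, with 1 of 9 called lower. Endothelial markers summed to between 172.7 and 192 FPKM in TG and between 160 and 172.2 FPKM in WT, with 2 of 8 called higher. Of these 8, 5 had log2 fold changes above 0. *Vwf*, *Tek* and *Pecam1* were below 0, at -0.47, -0.11 and -0.09, and were not called, *Vwf* without overlap. Nerve markers summed to between 196 and 238 FPKM in TG and between 126 and 208 FPKM in WT, which overlap. Of the 6 tested nerve markers 2 were called higher, *S100b* and *Mbp*. *S100b* alone went from 2.98 ± 0.60 to 62.1 ± 28.6 FPKM (SD, n = 3 each), and these values are part of the nerve sums. Whether the sums reflect nerve RNA was not tested. The log2 fold changes of *Sox10* and *Pmp22* were below 0, at -0.27 and -0.28, and were not called. Epithelial markers summed to between 107 and 241 FPKM in TG and between 164 and 271 FPKM in WT, with 0 of 8 called and 1 at an unadjusted p under 0.05 (limma). None of the 13 skeletal muscle markers was called (limma), 2 had an unadjusted p under 0.05, and all 13 had positive log2 fold changes. The part of these cell types in the glycogen gene values was not tested. With replicate 2 of both genotypes left out, the mice with the most muscle RNA, 4 of the 9 glycogen genes were called higher. Of the 11691 loci tested then, 700 were called higher. The TG mice that remained still held more muscle marker RNA (104 and 152 FPKM) than the WT mice that remained (9.38 and 45.9 FPKM). Muscle RNA and genotype thus cannot be told apart in this fit, which was chosen after seeing the data. *Pygl*, *Ugp2* and *Gbe1* kept their calls, with log2 fold changes of 1.11, 0.90 and 0.60, and *Ppp1r3b* gained one, with 3.45 (adjusted p = 0.0263, limma).

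**Figure D4:**
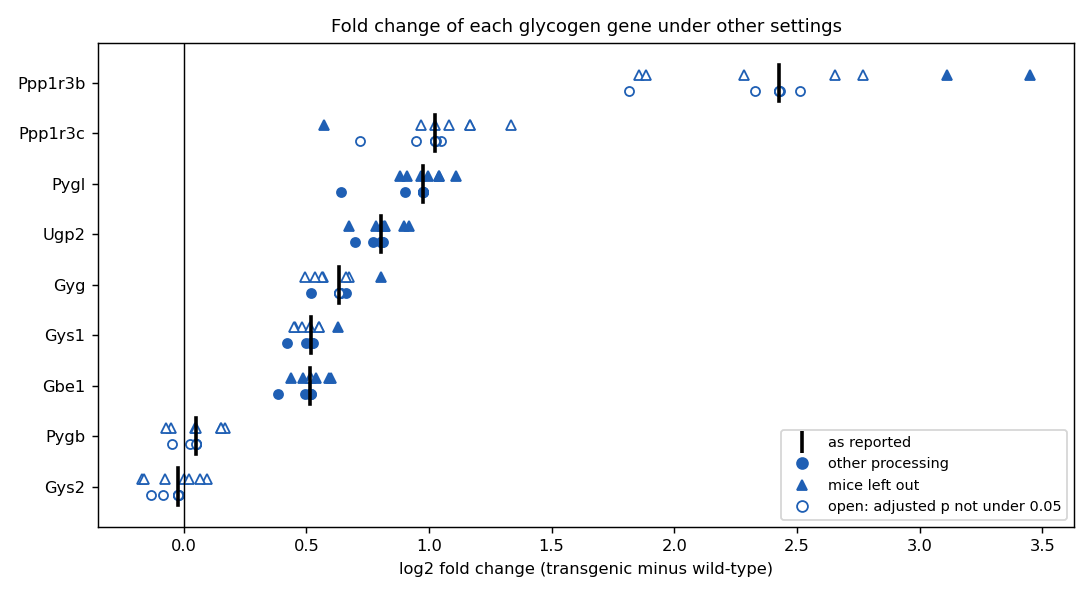
Log2 fold change (x axis, TG minus WT) of each glycogen gene as reported (black line), under other processing (circles) and with mice left out (triangles), where filled symbols have an adjusted p under 0.05 (limma). *Pygl* and *Ugp2* are called in all 15 other settings, *Gys2* and *Pygb* lie on both sides of 0, *Ppp1r3b* ranges from 1.81 to 3.45, and the open symbols of *Gbe1* (0.51 and 0.52) lie on its line.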

How the data were processed

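RNA from iWAT of 3 *Hlx* transgenic mice and 3 wild-type littermates was sequenced from TruSeq libraries (100 bases, single-end). Per the labels, the authors aligned to mm10 with TopHat2 2.0.9 and Bowtie2 2.1.0 and quantified genes with Cufflinks 2.2.1, and deposited FPKM per gene and mouse. The annotation and options are not given in the sources used here. No counts were used, so no count test was run, and counting intervals were not computed.

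On log2(FPKM + 1), limma 3.58.1 (R 4.3.3; lmFit, eBayes with trend, two-sided, no covariates) was run over the 11692 loci whose mean passed 1 FPKM in TG or WT. Fold changes on this scale understate those of low genes. The procedure was tested on simulated data. Shares were compared by exact permutation tests over 20 arrangements. A symbol on several rows was taken from the row with the highest mean. The labels name no pairs of mice. Deviations from the group mean were nearly uncorrelated between mice of the same replicate number (correlation from 0.01 to 0.07), which does not exclude pairing by litter. Gene overlaps came from GENCODE M21. Figures used matplotlib 3.10.9.

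The genes and lists were chosen with earlier results of these data known. Named genes were the 9, *Pygm* and *Gaa*, the called genes of each list (the 6 largest where more), and the 5 nearest patterns to the gene with the largest change. Other names were chosen after their values were seen. Some genes that met the rule are not reported here. Alternatives were a pseudocount of 0.1, other filters, quantile and median-ratio normalization, no trend, sample weights, the replicate block, mice left out and stricter calls. The median-ratio factors lay between 0.997 and 1.003, so that setting left the values nearly unchanged and could hardly alter a call.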

Additional observations from a re-analysis of the deposited data

How the results depend on the processing

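The directions of *Gys1*, *Gyg*, *Gbe1*, *Ugp2*, *Ppp1r3b*, *Ppp1r3c* and *Pygl* held in all 15 settings that refitted the data, and the calls of *Pygl* and *Ugp2* did too. The calls of *Gys1*, *Gyg* and *Gbe1* were lost in 6, 8 and 2 settings. The log2 fold change of *Gys2* turned to 0.001 without TG replicate 1, 0.10 without TG replicate 3, 0.07 without WT replicate 2 and 0.02 without WT replicate 3, and with a mouse left out it ranged from -0.168 to 0.096. That of *Pygb* turned to -0.046 with quantile normalization, -0.051 without TG replicate 1 and -0.071 without WT replicate 3, and ranged up to 0.167. With no filter on low values, where 19445 loci share the adjustment, 748 loci, 3 of the 9 glycogen genes and 5 pathway genes were higher and 381 loci and 1 pathway gene lower. With an adjusted p under 0.01 these were 569, 2 and 6 higher and 199 and 1 lower. With a ratio of at least 2 in addition to the call, 413 loci, 0 glycogen genes and 7 pathway genes were higher and 204 loci and 1 pathway gene lower. Sample quality weights gave 8 lower pathway genes. Since the labels name no pairs of mice, the replicate block served only as 1 of the 15 other settings counted above. It gave 1230 loci higher and 656 lower, 4 glycogen genes higher (*Gyg* had a limma adjusted p of 0.0574), and 11 pathway genes higher and 3 lower. When single mice were left out, the higher loci ranged from 780 to 1295, the lower loci from 329 to 906, the higher glycogen genes from 2 (without TG replicate 3) to 5 (3 without WT replicate 2 or 3), and the pathway genes from 8 to 10 higher and from 1 to 7 lower. Without replicate 2 of both genotypes, a choice made after seeing the data, 700 loci, 4 glycogen genes and 6 pathway genes were higher and 408 loci and 4 pathway genes lower. The shares of *Gys2*, *Pygl* and *Ppp1r3b* kept their direction, and TG minus WT ranged from -11.1 to -5.66, from 7.62 to 9.89 and from 16.1 to 34.0 percentage points with a mouse left out. Absolute depth is unknown, so genes of a few FPKM are less precise, most of all in TG replicates 1 and 3.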
